A study of Saccharomyces cerevisiae S288C with 18 samples.

Results

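The 8 genes described here encode the RNA polymerase I (Pol I) subunits that no other nuclear polymerase uses (RPA190, RPA135, RPA49, RPA43, RPA34, RPA14 and RPA12) and the Pol I initiation factor RRN3. They were chosen by name, as 8 of the 6692 genes in the count table, and the rule that chose them uses no measured value. Earlier results of these data were known when they were chosen. All 8 passed the filter on low counts on both sequencing platforms.

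Pol I transcribes the tandem ribosomal DNA repeats into the precursor of the large ribosomal RNAs, and in growing yeast this is the most active transcription in the cell. Rpa190 and Rpa135 form the catalytic centre, Rpa43 and Rpa14 form the stalk, Rpa49 and Rpa34 form a dimer that aids initiation and elongation, and Rpa12 takes part in cleavage of the transcript and in termination. Rrn3 binds the polymerase at the stalk and brings it to the promoter, which the core factor binds, and yeast cells lower rRNA synthesis when nutrients run short or growth slows. The RNA measured here was selected by its poly-A tail, so the mRNAs of these proteins were counted and rRNA itself was not.

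Cultures of Saccharomyces cerevisiae strain S288C were grown in RPMI-1640 medium at 30 °C in 6 groups of 3 biological replicates. AMB cultures received amphotericin B, an antifungal drug that binds ergosterol, at 0.03 µg/mL for 60 min. AMB-LF cultures received the same dose of amphotericin B with bovine lactoferrin, an iron-binding milk protein, at 2 µg/mL for 50 min, and LF cultures received lactoferrin alone at 2 µg/mL for 50 min. Each treatment had its own control without drug, called control for AMB (60 min), control for AMB-LF (50 min) and control for LF (50 min), and the AMB and AMB-LF times were those at which growth was inhibited by 20%. The time of growth and the drug therefore differ together between AMB and AMB-LF, and their parts in a difference between these groups cannot be told apart.

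The 12 libraries of AMB, AMB-LF and their controls (HiSeq platform, lanes 1 and 2) held 6799569 to 9696467 counts each, and the 6 libraries of LF and its control (NextSeq platform, 1 lane) held 23925944 to 30172836. All 3 libraries of the control for AMB-LF were in lane 1. In all 18 libraries the alpha-factor gene MF(ALPHA)1 was at most 0.81 counts per 1000000 after scaling (CPM), while the a-cell receptor gene STE2 was at 631 to 1049 CPM, a pattern of mating type a and not of the alpha mating type of the S288C reference strain. A scaling plot in the study's supplement labels the control groups of AMB and AMB-LF the opposite way round from the sample labels, and the growth protocol gives their times as 50 and 60 min in the opposite order. The sample labels were followed, and values with these control labels exchanged are given with the AMB and AMB-LF results, because exchanging them turned the direction of most of those results.

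On the R64 genome all 8 coding sequences are single exons, and they lie on 6 chromosomes. RPA190 (YOR341W, chrXV:960987-965981, plus strand) and RPA43 (YOR340C, chrXV:959202-960182, minus strand) are neighbours that start 804 bases apart and run away from each other. The other members are RPA135 (YPR010C, chrXVI:577585-581196, minus strand), RPA49 (YNL248C, chrXIV:181361-182608, minus strand), RPA34 (YJL148W, chrX:140437-141138, plus strand), RPA14 (YDR156W, chrIV:769525-769938, plus strand), RPA12 (YJR063W, chrX:555195-555572, plus strand) and RRN3 (YKL125W, chrXI:208247-210130, plus strand). The coding end of RPA14 overlaps YDR157W by 8 bases, and reads that fell on both genes were not counted for either.

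The letters before the coding starts are shown because most of these promoters share a pair of short motifs. PAC, named for its occurrence before genes of polymerases A (I) and C (III), was searched as GATGAG on both strands (CTCATC on the other strand). Since PAC was named from genes of this kind, its presence before them is not an independent result. The core of the RRPE, a motif first described before rRNA processing genes, was searched as AAAATTTT, which reads the same on both strands. In the stretches from R64 below, read 5′ to 3′ on the strand of the gene, capitals mark these motifs.
RPA190 (chrXV:960755-960835): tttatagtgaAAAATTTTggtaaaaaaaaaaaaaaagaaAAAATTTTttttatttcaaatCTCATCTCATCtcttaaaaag
RPA135 (chrXVI:581285-581341): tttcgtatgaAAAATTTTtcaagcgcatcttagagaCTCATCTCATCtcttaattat
RPA49 (chrXIV:182723-182763): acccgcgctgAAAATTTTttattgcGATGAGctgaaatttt
RPA43 (chrXV:960321-960374): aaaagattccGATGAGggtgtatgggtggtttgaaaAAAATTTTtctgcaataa
RPA34 (chrX:140206-140342): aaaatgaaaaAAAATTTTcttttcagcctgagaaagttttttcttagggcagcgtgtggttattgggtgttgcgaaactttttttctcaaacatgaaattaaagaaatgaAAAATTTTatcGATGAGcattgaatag
RPA14 (chrIV:769390-769481): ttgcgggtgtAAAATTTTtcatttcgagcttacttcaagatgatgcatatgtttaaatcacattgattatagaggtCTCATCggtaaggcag
RRN3 (chrXI:208033-208088): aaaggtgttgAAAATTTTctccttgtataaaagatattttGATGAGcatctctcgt

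In the window from 250 bases before to 50 bases after the coding start, 7 of the 8 members held both PAC and RRPE, and RPA12 held neither. Of 6001 yeast genes with such a window, 20.4% held PAC, 9.03% held RRPE and 4.38% held both. RPA190 and RPA135, which encode the catalytic pair, each carried 2 PAC matches that overlap by 1 base. The first base of the PAC match nearest to the coding start, leaving out 1 further match that runs across the start of RPA135, lay 59 bases upstream of the start in RPA14, 104 in RPA135, 110 in RPA34, 130 in RPA49, 167 in RPA190, 174 in RRN3 and 182 in RPA43. Of the 10 subunits found only in Pol III, 8 held PAC and 5 held RRPE, and of the 7 found only in Pol II, 1 held PAC, 2 held RRPE and 0 held both. The PAC counts of Pol I and Pol III genes are not independent of how the motif was named. A match of letters is not evidence that a factor binds there, and it is read below only as a property that the genes share.

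The comparison of AMB with its control asked how these genes stood in cells inhibited by amphotericin B alone. The transcripts of both catalytic subunits, the Rpa49-Rpa34 dimer, the stalk subunit Rpa43 and Rpa12 were lower in AMB, by 1.34- to 1.78-fold. The stalk gene RPA14 and the initiation factor gene RRN3 did not pass the test. With edgeR's quasi-likelihood test at a Benjamini-Hochberg adjusted p under 0.05, 6 of the 8 members were called lower and 0 higher, where 18.4% of the 5456 genes tested were called lower and 18.7% higher. The median log2 fold change was -0.75 over the members and -0.02 over all genes tested. In bulk RNA, less transcript per cell and fewer cells that hold the transcript cannot be told apart.

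RPA190, which encodes the largest subunit, stood at 165, 237 and 161 CPM in replicates 1 to 3 of the control for AMB and at 127, 79.3 and 105 CPM in AMB. The groups did not overlap, and the log2 fold change was -0.83 (SE 0.24, adjusted p = 0.018). RPA135, the second largest subunit, stood at 251, 358 and 230 CPM in the control and at 195, 117 and 171 CPM in AMB. The AMB libraries were again all below the control libraries, with a log2 fold change of -0.76 (SE 0.25, adjusted p = 0.033). In both genes AMB replicate 2 was the lowest treated library and control replicate 2 the highest control library.

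The dimer genes moved by like amounts. RPA49 had 141, 159 and 116 CPM in the control for AMB and 87.9, 68.0 and 91.3 CPM in AMB. RPA34 had 136, 142 and 108 CPM in the control and 69.6, 59.5 and 84.9 CPM in AMB. In neither gene did the groups overlap, and the log2 fold changes were -0.73 (SE 0.18, adjusted p = 0.008) for RPA49 and -0.82 (SE 0.19, adjusted p = 0.007) for RPA34.

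The stalk genes stood apart from each other. RPA43, whose product is the contact of Rrn3 on the polymerase, had 75.2, 99.2 and 67.5 CPM in the control for AMB and 47.8, 32.6 and 53.1 CPM in AMB, a log2 fold change of -0.81 (SE 0.21, adjusted p = 0.012). RPA14 had 38.1, 35.0 and 35.9 CPM in the control and 34.4, 32.5 and 37.9 CPM in AMB, so its groups overlapped. Its log2 fold change was -0.05 with a 95% interval of -0.28 to 0.18, which does not reach the interval of RPA43 (-1.28 to -0.34). Whether the 2 genes responded differently was not tested.

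RPA12, the smallest member and the only one without either motif, had 71.9, 80.6 and 64.7 CPM in the control for AMB and 52.9, 44.5 and 61.8 CPM in AMB. The groups did not overlap, and the log2 fold change was -0.42 (SE 0.13, adjusted p = 0.026). RRN3 had 75.3, 85.1 and 70.5 CPM in the control and 75.1, 71.6 and 80.3 CPM in AMB, which overlap throughout, and its log2 fold change was -0.03 (95% interval -0.24 to 0.18, adjusted p = 0.85). In all, 6 of 8 members had every AMB library below every control library, against 27.5% of all genes tested.

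**Figure D1:**
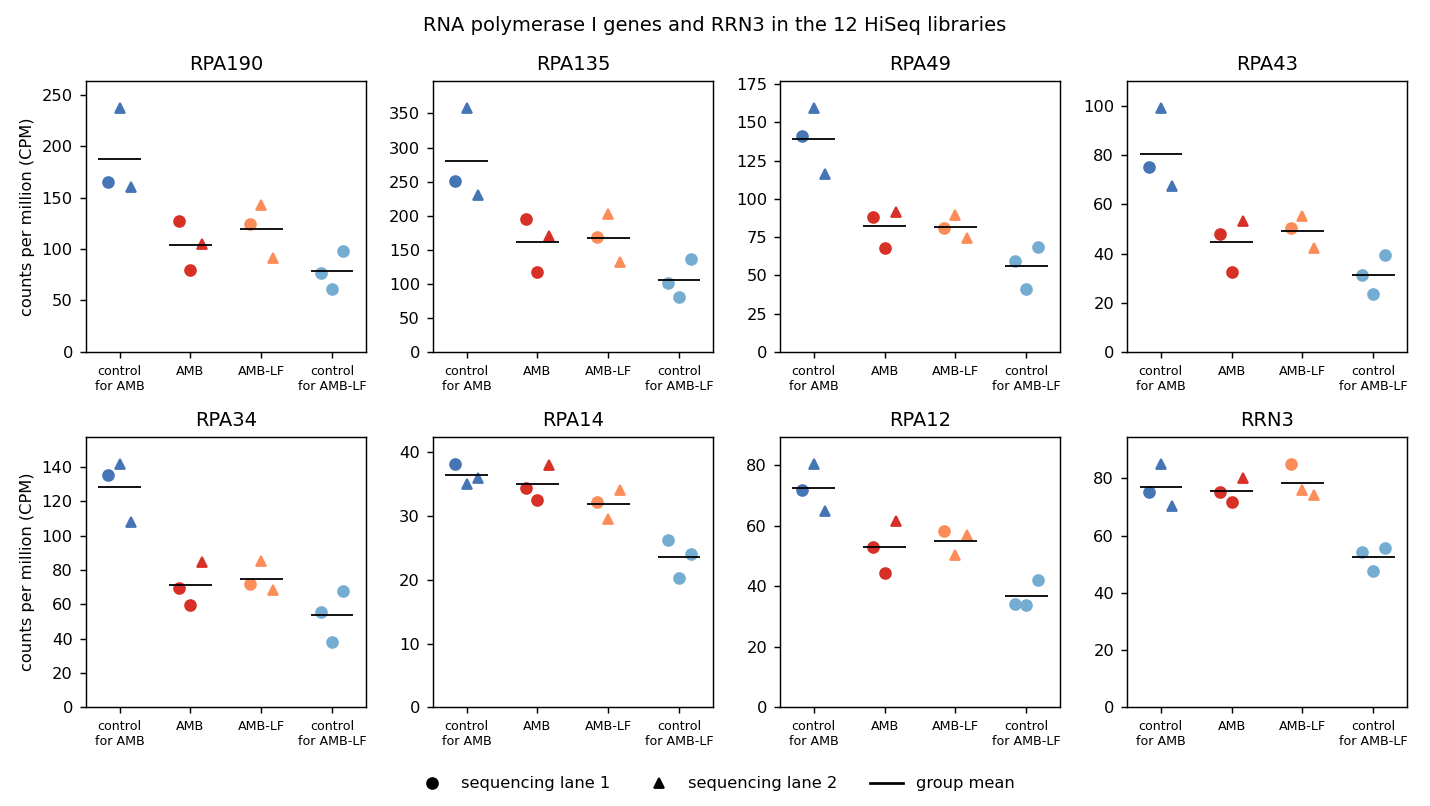
Level of each of the 8 genes in CPM (y axis, starting at 0) in the 12 HiSeq libraries by group (x axis); each point is a library, circles are lane 1, triangles are lane 2 and black lines are group means (n = 3). By group mean the control for AMB is the highest and the control for AMB-LF the lowest in every panel but that of RRN3, where AMB-LF has the highest mean and only the control for AMB-LF stands below the rest.

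The direction of the AMB comparison depended on which untreated libraries were used. With the control labels exchanged, the 8 log2 fold changes were 0.36 to 0.56 and RPA49, RPA14, RPA12 and RRN3 were called higher, and with the 6 untreated HiSeq libraries pooled as 1 control 0 members were called. The count of 6 also fell to 0 without control for AMB replicate 1, and to 3 without AMB replicate 2 or without control for AMB replicate 2, with a median log2 fold change of the members of -0.66, -0.62 and -0.61, against -0.75 with all libraries. Without control for AMB replicate 1 the calls over all genes fell as well, to 421 lower and 554 higher. Within lane 1 alone the log2 fold changes were -1.09 to -0.06 and within lane 2 alone -0.90 to 0.11. In each lane a compared group held a single library, so no calls are given.

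The comparison of AMB-LF with its control asked the same of the drug combination at the same amphotericin B dose. Here the 8 log2 fold changes were 0.39 to 0.59, all above 0, but only RPA14, RPA12 and RRN3 were called higher, by 1.34-, 1.44- and 1.49-fold. These 3 genes had the AMB changes nearest to 0, and their standard errors here (0.11 to 0.15) were smaller than those of the other 5 genes (0.20 to 0.28). Over all genes tested 14.1% were called higher and 15.1% lower, against 3 and 0 of the 8 members, and the median log2 fold change was 0.53 over the members and -0.01 over all genes tested.

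RRN3 had 85.0, 76.0 and 74.2 CPM in replicates 1 to 3 of AMB-LF and 54.2, 47.6 and 55.8 CPM in its control. Every treated library was above every control library, and the log2 fold change was 0.58 (SE 0.11, adjusted p = 0.0022). RPA14 had 26.2, 20.2 and 24.0 CPM in the control and 32.1, 29.5 and 34.0 CPM in AMB-LF (log2 fold change 0.42, SE 0.12, adjusted p = 0.021). RPA12 had 34.3, 33.9 and 42.1 CPM in the control and 58.1, 50.2 and 56.8 CPM in AMB-LF (log2 fold change 0.53, SE 0.15, adjusted p = 0.02). The groups did not overlap in either gene.

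The catalytic pair was more variable. RPA190 had 125, 143 and 91.1 CPM in AMB-LF and 77.2, 60.8 and 97.9 CPM in the control, so that AMB-LF replicate 3 lay below control replicate 3. RPA135 had 100, 80.5 and 136 CPM in the control and 168, 203 and 132 CPM in AMB-LF, with the same overlap. Their log2 fold changes were 0.55 (95% interval -0.02 to 1.13, adjusted p = 0.13) and 0.59 (95% interval -0.02 to 1.19, adjusted p = 0.13), and neither passed the test.

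For the stalk gene RPA43 the levels were 50.3, 55.4 and 42.1 CPM in AMB-LF and 31.2, 23.5 and 39.3 CPM in the control. RPA49 stood at 81.1, 89.7 and 74.3 CPM in AMB-LF and at 59.6, 41.3 and 68.3 CPM in the control. RPA34 stood at 71.7, 85.0 and 68.1 CPM in AMB-LF and at 55.8, 37.8 and 67.9 CPM in the control. In these 3 genes the treated libraries were above the control libraries, in RPA34 only narrowly, but the adjusted p values were 0.11, 0.091 and 0.2. Altogether 6 of 8 members had all AMB-LF libraries above all control libraries, against 25.0% of all genes tested.

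The calls, more than the fold changes, turned on single libraries. Without AMB-LF replicate 1, the only AMB-LF library in the lane of the controls, 0 members were called although their log2 fold changes were 0.40 to 0.52, and the calls over all genes fell to 301 higher and 172 lower. By contrast, the count rose to 6 when control for AMB-LF replicate 3 was left out. With the control labels exchanged, 7 of the 8 log2 fold changes were negative (-0.78 to -0.19) and RRN3 was at 0.03, with RPA190, RPA135, RPA49, RPA43, RPA34 and RPA12 called lower, and with the 6 untreated libraries pooled 0 members were called. Within lane 1 alone, which holds 1 AMB-LF library, the log2 fold changes were 0.40 to 0.69. Lane 2 held no library of the control for AMB-LF.

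**Figure D2:**
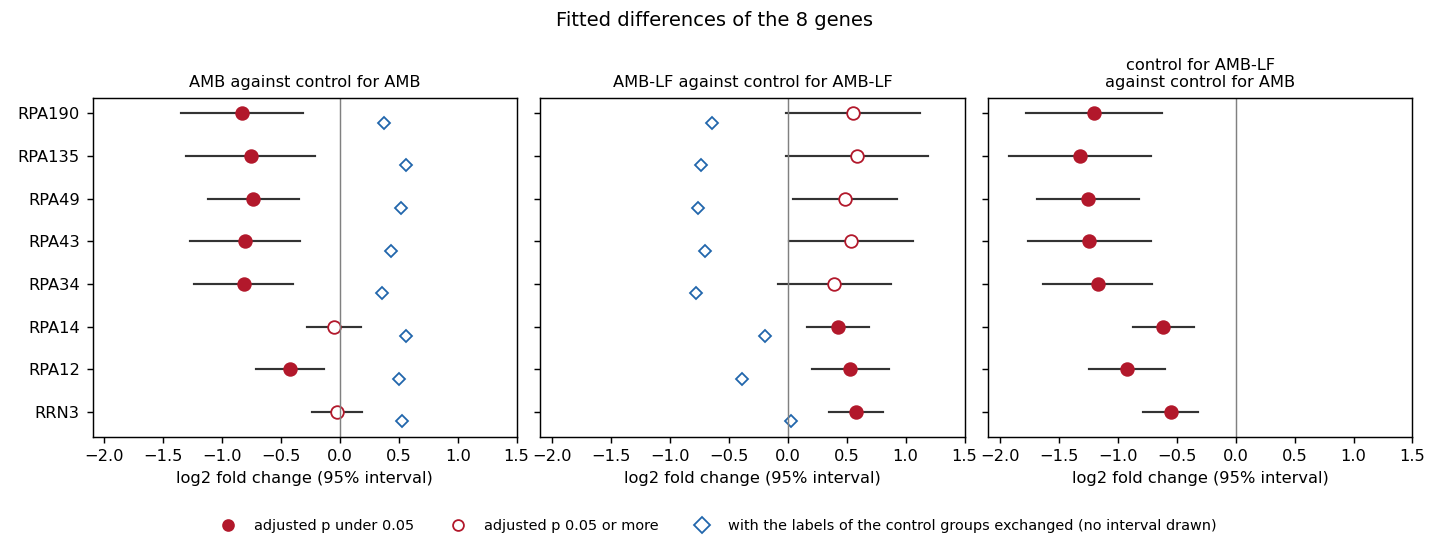
Log2 fold change (x axis) of each of the 8 genes (y axis) in AMB against its control, AMB-LF against its control, and the untreated group of AMB-LF against that of AMB; bars are 95% intervals, filled circles have an adjusted p under 0.05, and diamonds give the value with the control labels exchanged. The circles lie between -0.83 and -0.03 for AMB, between 0.39 and 0.59 for AMB-LF, and between -1.32 and -0.55 for the controls, and all but 1 of the diamonds lie across 0 from their circles.

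Whether the responses differed was tested directly, as the AMB-LF response minus the AMB response, each against its own control. The difference was positive for all 8 members, and 7 were called, with RPA14 the exception. RPA190, RPA135 and RPA43 differed most, by 1.39 (SE 0.38), 1.35 (SE 0.39) and 1.35 (SE 0.34) on the log2 scale. RPA49 and RPA34 differed by 1.22 and 1.21, RPA12 by 0.96 and RRN3 by 0.60, with adjusted p values from 0.02 to 0.038 for the 7, and RPA14 by 0.48 (adjusted p = 0.074). Among all genes tested 10.1% were called higher in this comparison and 7.46% lower. The count of 7 fell to 0 without control for AMB replicate 1 and also without AMB-LF replicate 1. In both fits 0 of all genes tested were called in either direction, 1228 and 1029 genes had an unadjusted p under 0.05, and the median of the members was 1.04 and 1.18, against 1.21 with all libraries. With the control labels exchanged all 8 were called in the opposite direction (-1.30 to -0.50).

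The treated groups themselves were not told apart in these genes. In AMB-LF against AMB, which share no library, the log2 fold changes ran from -0.14 (RPA14) to 0.18 (RPA190), 0 of 8 members were called, and 0 had an unadjusted p under 0.05. The 95% intervals were narrowest for RRN3 (-0.16 to 0.26) and RPA14 (-0.37 to 0.09) and widest for RPA135 (-0.52 to 0.57). Differences within these intervals are compatible with the data. For 0 of 8 members did the groups fail to overlap, against 15.8% of all genes tested. Over all genes 1 was called higher (0.0183%) and 17 lower (0.312%) by this test, and 386 had an unadjusted p under 0.05. edgeR's likelihood ratio test and DESeq2 also called 0 members.

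The control groups, in contrast, were far apart. In the untreated cultures of AMB-LF (50 min) against those of AMB (60 min) all 8 members were called lower and their groups did not overlap. Over all genes tested 16.6% were called lower, 15.2% were called higher, and 22.8% had groups that did not overlap in the same direction. The catalytic genes RPA190 and RPA135 had log2 differences of -1.20 (SE 0.26, adjusted p = 0.0053) and -1.32 (SE 0.28, adjusted p = 0.0042). RPA49, RPA43 and RPA34 were at -1.25, -1.24 and -1.17, RPA12 at -0.92, RPA14 at -0.61 and RRN3 at -0.55. Exchanging the labels of these groups turns each of these signs by construction. The opposite signs of the AMB and AMB-LF comparisons thus accompany treated groups that did not differ by the test and controls that differed by 1.47- to 2.50-fold. The order control for AMB, then both treated groups, then control for AMB-LF held without overlap of libraries in 1 member, RPA12, against 2.62% of all genes. The TMM scaling factors of the control for AMB-LF were 1.10, 1.05 and 1.02, while those of the other 9 HiSeq libraries were 0.969 to 0.997; with scaling to library size only, the log2 differences between the controls were -1.22 to -0.45 and all 8 members were called.

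Per kilobase of coding sequence, RPA12 had the highest mean level in each HiSeq group and RPA190 the lowest. The order differed in the NextSeq groups. There RPA34 had the highest mean (178 CPM per kb in LF and 173 in its control) and RRN3 the lowest (48.4 and 48.2). In the control for AMB the means were 192 ± 20.9 CPM per kb (SD, n = 3) for RPA12, 183 ± 25.8 for RPA34, 111 ± 17.4 for RPA49, 87.8 ± 3.9 for RPA14, 82.2 ± 16.8 for RPA43, 77.5 ± 18.9 for RPA135, 40.9 ± 4.0 for RRN3 and 37.6 ± 8.6 for RPA190. Replicates of neighbours in this order overlapped except between RPA34 and RPA49, RPA49 and RPA14, and RPA135 and RRN3. In the control for AMB-LF the order was the same but for RPA14, which stood above RPA49, and only RRN3 and RPA190 (27.9 ± 2.3 and 15.7 ± 3.7 CPM per kb) did not overlap. From the highest to the lowest gene the mean levels spanned 5.10-fold and 6.18-fold in these groups, with RPA190 the longest and RPA12 the shortest coding sequence. How read length and gene length enter these levels was not tested.

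The 8 profiles rose and fell together over the libraries. Over the 12 HiSeq libraries the Pearson correlation of log2 CPM had a median of 0.89 over the 28 pairs of members, from 0.65 (RPA190 with RPA14) to 0.99 (RPA190 with RPA135). The libraries share groups, lanes and scaling, so these values are a description. After each group was centred at its own mean, the median was 0.75, RPA190 and RPA135 kept 0.99, RPA49 and RPA34 had 0.97, and RPA14 had only 0.09 with RPA190 and 0.13 with RPA135. RPA190 and RPA43, which share the region between them, had 0.98 and, after centring, 0.92.

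**Figure D3:**
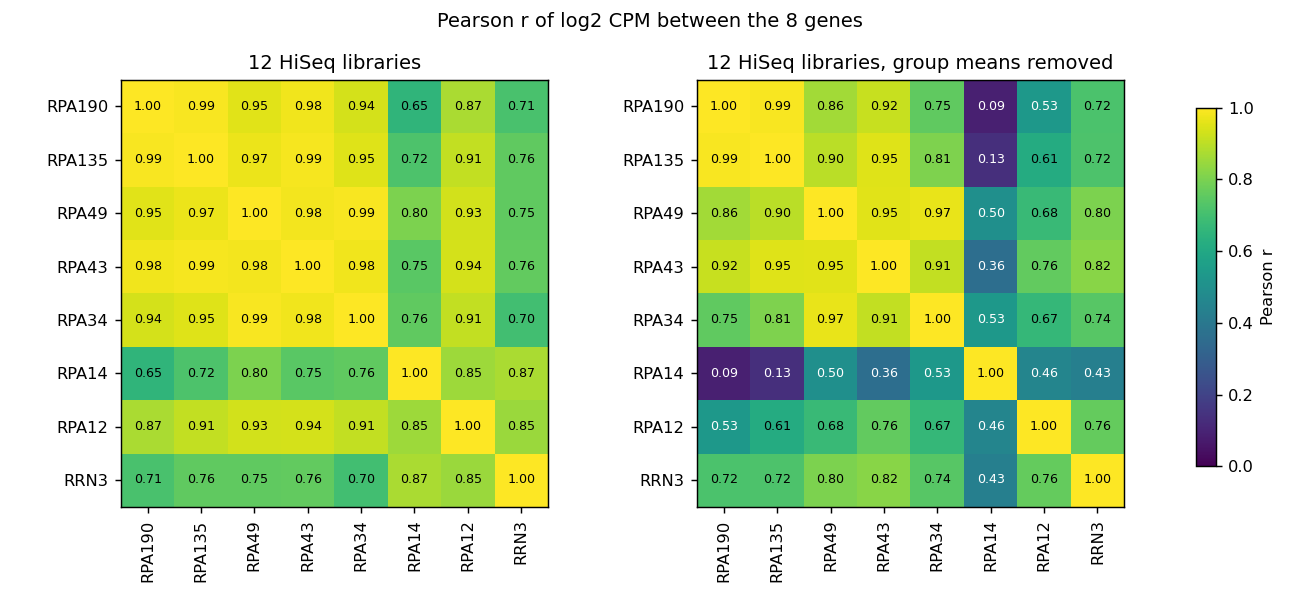
Pearson correlation of log2 CPM between each pair of the 8 genes over the 12 HiSeq libraries (left) and over the same libraries with each group's mean removed (right); the number in each cell is r and the colour scale runs from 0 to 1. The genes from RPA190 to RPA34 have r of 0.94 or more with each other on the left, and the row of RPA14 is the lowest on the right, at 0.09 to 0.53.

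The 10 other genes whose profile over the 12 libraries was most like the mean profile of the members, with r from 0.988 to 0.995, were BRX1, TSR1, SRP40, FPR4, DIP2, NEW1, NOP14, ELP2, NOP58 and GUA1. BRX1 and TSR1 encode ribosome assembly factors, DIP2, NOP14 and NOP58 encode proteins of small-subunit rRNA processing or of box C/D snoRNPs, SRP40 encodes a nucleolar chaperone, and GUA1 encodes GMP synthase. Their log2 fold changes ran from -0.88 (NOP14, GUA1) to -0.35 (ELP2) in AMB and from 0.38 (NEW1) to 0.72 (GUA1) in AMB-LF. These genes were chosen by their profile over the same libraries, so fold changes like those of the members follow from the choice. Values with exchanged control labels are not given for them. Among the members r to this mean profile was 0.96 to 0.99 for RPA190, RPA135, RPA49, RPA43, RPA34 and RPA12 and 0.81 and 0.82 for RPA14 and RRN3.

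The other subunits of the polymerases and the other factors of the rDNA were described with the same fit. The subunits RPC40 and RPC19 link Pol I to Pol III, since both enzymes contain them. RPC40 was lower in AMB (225 ± 23.9 CPM in the control and 167 ± 13.4 in AMB, SD, n = 3, log2 fold change -0.42, adjusted p = 0.024) and higher in AMB-LF (113 ± 21.5 and 166 ± 6.3 CPM, log2 fold change 0.54, adjusted p = 0.017). RPC19 was called in neither (-0.36 and 0.30). Of the 5 subunits common to all polymerases, 4 were called lower in AMB (RPB8 most, at -0.57) and 1, RPC10, was called higher in AMB-LF (0.36). The medians of the 5 were -0.33 and 0.20. With the control labels exchanged RPC40 was called in the opposite directions (0.55, adjusted p = 0.007 in AMB, and -0.44, adjusted p = 0.019 in AMB-LF). The medians of the 5 common subunits then turned to 0.22 in AMB (1 called higher, 0 lower) and -0.29 in AMB-LF (0 higher, 4 lower).

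Of the 10 subunits found only in Pol III, 9 were called lower in AMB and 5 higher in AMB-LF, with median log2 fold changes of -0.41 and 0.35. RPC17, which encodes a stalk subunit of Pol III, changed most in both, by -0.85 (SE 0.21, adjusted p = 0.0091) and 0.71 (SE 0.23, adjusted p = 0.039). Of the 7 subunits found only in Pol II, 1 was called in each treatment, and it was RPB11 both times, with log2 fold changes of -0.20 and -0.33. The Pol II medians were -0.11 and 0.06, nearer to those of all genes than the Pol I and Pol III medians were. The untreated group of AMB-LF was called lower than that of AMB for 10 of 10 Pol III subunits (median -0.65) and for 1 of 7 Pol II subunits (median -0.09). When the control labels were exchanged, the Pol III medians turned to 0.29 in AMB (2 called higher, 0 lower) and -0.33 in AMB-LF (0 higher, 4 lower), RPC17 was at 0.26 (adjusted p = 0.38) and -0.40 (adjusted p = 0.16), and RPB11 was still lower in both (-0.30 and -0.23).

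**Figure D4:**
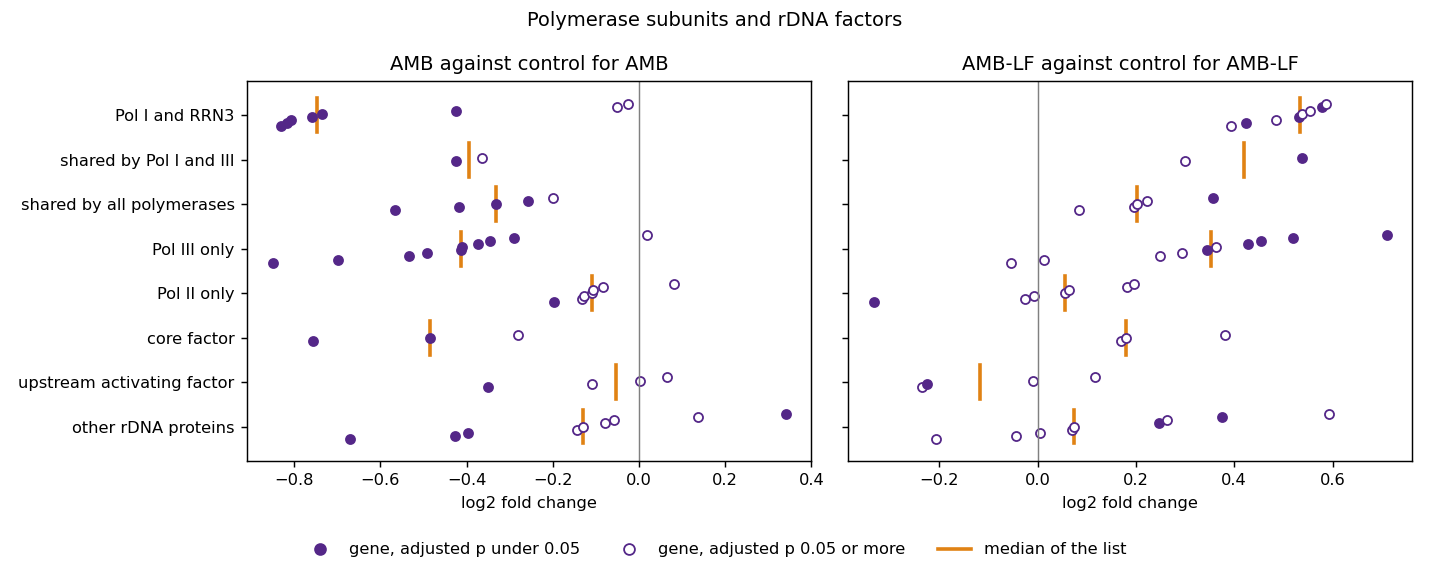
Log2 fold change (x axis) of each gene in 8 lists (y axis) in AMB (left) and AMB-LF (right), each against its own control; each circle is a gene, filled where the adjusted p is under 0.05, and orange bars are list medians. The Pol I, shared and Pol III lists lie mostly left of 0 in AMB and right of 0 in AMB-LF, and the Pol II list lies around 0 in both.

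Among the factors that act with Pol I at the rDNA, the core factor that binds the promoter had 2 of 3 genes called lower in AMB. These were RRN11 (-0.76, adjusted p = 0.022) and RRN6 (-0.49, adjusted p = 0.0014), and 0 of 3 were called in AMB-LF. RRN7 was at -0.28 and 0.38. Of the 4 genes tested for the upstream activating factor, UAF30 was lower in AMB (-0.35) and RRN9 was lower in AMB-LF (-0.22), and RRN5 and RRN10 were called in neither. Their list medians were -0.05 in AMB and -0.12 in AMB-LF. Under exchanged control labels RRN11 was at 0.30 in AMB (adjusted p = 0.37) and RRN6 at -0.05 (adjusted p = 0.65), and both were called lower in AMB-LF (-0.88, adjusted p = 0.011, and -0.25, adjusted p = 0.034). UAF30 was then called lower in AMB-LF (-0.44, adjusted p = 0.0021) and not in AMB (-0.15, adjusted p = 0.19), and RRN9 in neither (-0.18 and -0.15).

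The remaining rDNA proteins went separate ways. RNT1, the RNase that cuts the rRNA precursor at its end, was lower in AMB (-0.67, adjusted p = 0.014) and had a log2 fold change of 0.59 in AMB-LF (adjusted p = 0.056). FOB1, which blocks replication forks in the rDNA, and SIR2, the deacetylase that silences it, were lower in AMB (-0.43 and -0.40) and were called in AMB-LF in neither case. HMO1, a high-mobility-group protein found on actively transcribed rDNA, was higher in both, at 293 ± 12.1 CPM in the control and 366 ± 10.0 in AMB (0.34, adjusted p = 0.016) and at 271 ± 31.4 and 362 ± 36.0 CPM for AMB-LF (0.38, adjusted p = 0.021). REB1 was also higher in AMB-LF (0.25, adjusted p = 0.05, just under the threshold), and SPT15, NSI1, TOP1 and NET1 were called in neither treatment. Under exchanged control labels HMO1 was still higher in both (0.41 and 0.30), REB1 was still higher in AMB-LF (0.26, adjusted p = 0.022), and RNT1 was at 0.62 in AMB and -0.70 in AMB-LF. FOB1 and SIR2 were then not called in AMB (0.17 and -0.06) and were called lower in AMB-LF (-0.34, adjusted p = 0.033, and -0.38, adjusted p = 0.0034).

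The genes with both motifs other than the members were summarised in the same way, with 5 of the subunits found only in Pol III among them. The 249 other tested genes with PAC and RRPE in the same window had a median log2 fold change of -0.56 in AMB, with 183 (73.5%) called lower and 8 higher. In AMB-LF their median was 0.27, with 30 (12.0%) called higher and 3 (1.2%) lower, so the share called higher was near that of all genes (14.1%) and the share called lower was below theirs (15.1%). Between the untreated groups 188 of them were called lower in the control for AMB-LF and 5 higher. Under exchanged labels their medians were 0.25 in AMB and -0.58 in AMB-LF. The 4063 tested genes with neither motif had medians of 0.01 and -0.03 in AMB and AMB-LF, with 13.1% called lower in AMB and, in AMB-LF, 13.3% called higher and 16.8% lower. Within the members the motifs did not sort the responses, since RPA14 and RRN3 held both and had the AMB log2 fold changes nearest to 0, and RPA12 held neither and was called lower.

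Lactoferrin alone was compared with its control in the NextSeq libraries, which were made with another kit and analysed apart from the HiSeq libraries. None of the members was called by the quasi-likelihood test, with log2 fold changes of 0.00 (RPA43) to 0.16 (RPA14), and 0 of 8 had an unadjusted p under 0.05. Over all 5445 genes tested 0.0% were called higher and 0.0% lower, 8 had an unadjusted p under 0.05, and the likelihood ratio test and DESeq2 called 0 genes as well. With the replicate number as a block, which the pairing of these libraries allows, 0 genes were called and 418 had an unadjusted p under 0.05.

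The replicates of these groups differed far more than the groups. RPA190 had 431, 428 and 247 CPM in replicates 1 to 3 of the control for LF and 400, 495 and 237 CPM in LF. RPA135 had 546, 538 and 322 CPM in the control and 502, 654 and 319 CPM in LF. In both groups replicate 3 was the lowest library, as it was for 8 of 8 members, against 35.6% of all genes tested.

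In the stalk gene RPA43 and, to a smaller extent, in RPA14 and RRN3, replicate 3 was likewise the lowest library of both groups. RPA43 had 167, 167 and 98.6 CPM in the control for LF and 151, 180 and 101 CPM in LF. RPA14 had 60.7, 57.0 and 45.4 CPM in the control and 64.5, 64.5 and 53.1 CPM in LF, so LF was above the control in each numbered pair. RRN3 had 88.1, 107 and 77.6 CPM in the control and 86.9, 109 and 77.3 CPM in LF, pairs that nearly coincide. Without the replicate block the 95% interval of the log2 fold change was -0.77 to 0.84 for RPA190 and -0.17 to 0.49 for RPA14. With the block it was -0.13 to 0.16 for RPA190 and 0.05 to 0.28 for RPA14, whose unadjusted p was 0.010 and adjusted p 0.49, so RPA14 was called in neither fit.

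The dimer genes and RPA12 followed the catalytic pair. RPA49 had 228, 218 and 137 CPM in the control for LF and 216, 241 and 148 CPM in LF. RPA34 had 144, 140 and 81.4 CPM against 135, 156 and 85.2 CPM. RPA12 had 76.0, 67.2 and 48.8 CPM against 71.3, 76.2 and 51.0 CPM, and in all 3 genes the groups overlapped. Summed over the 8 members, the level was 1740, 1722 and 1058 CPM in the control for LF and 1627, 1976 and 1072 CPM in LF. The same sum was 853 to 1196 CPM in the control for AMB, 505 to 690 in AMB, 573 to 731 in AMB-LF and, in its control, 346 to 531, values of the other platform that are given without a comparison.

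**Figure D5:**
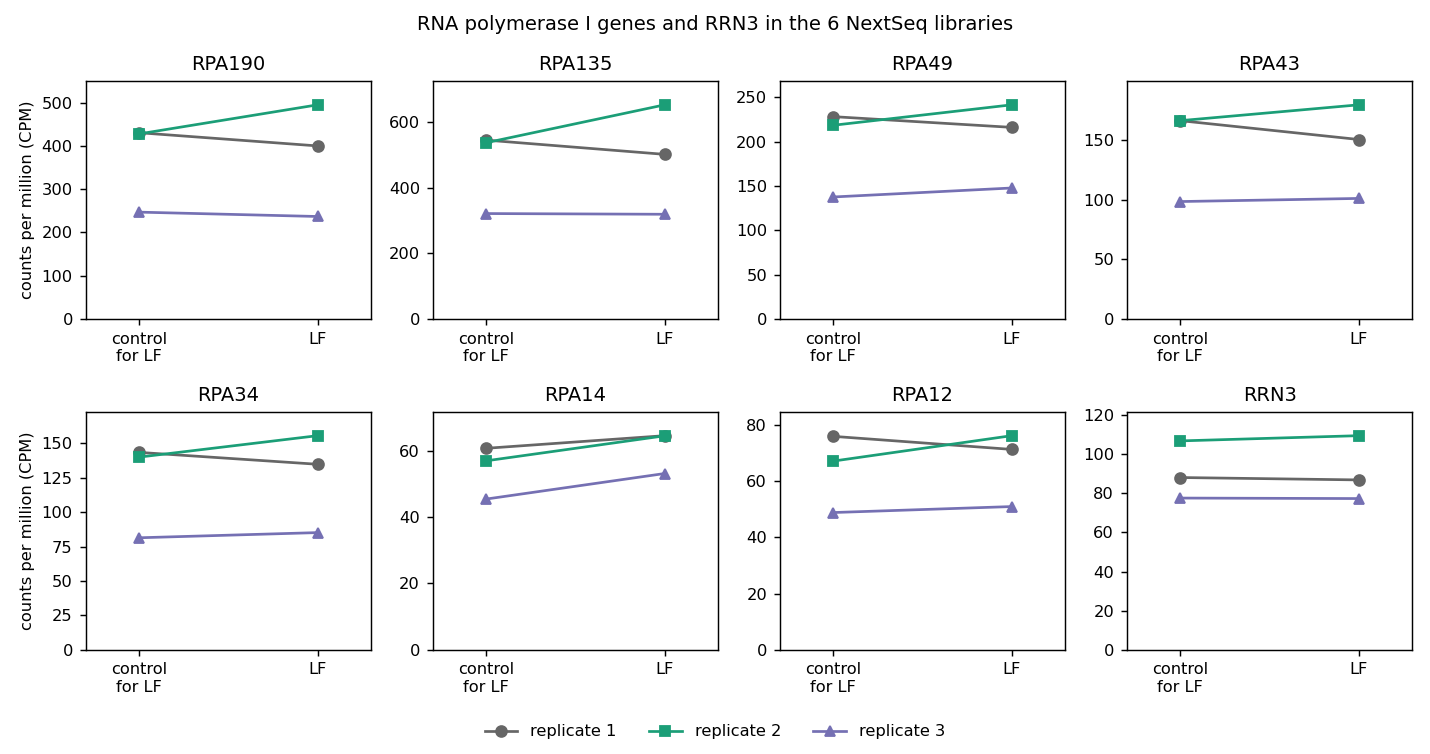
Level of each of the 8 genes in CPM (y axis, starting at 0) in the control for LF and LF (x axis); lines join libraries with the same replicate number. Replicate 3 is the lowest library of both groups in all 8 panels. The lines of RRN3 are close to level, and in RPA190 and RPA135 replicate 1 falls and replicate 2 rises from the control to LF.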

How the data were processed

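Poly-A RNA of 18 S. cerevisiae libraries was sequenced. After alignment to R64, the authors counted reads on coding sequences with HTSeq 0.5.3p9. For LF and its control the paper names other versions of HTSeq and of the alignment tools. These raw counts, taken over both strands, are the values as deposited, so antisense transcription cannot be told apart. Deposited tables of group averages and of the authors' own test results (fold changes, p-values) were not used. Of 6692 genes, 6008 matched RefSeq R64 and the 684 others held 0.3% of the counts.

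A gene was tested if it reached 7 CPM in 6 or more of the HiSeq libraries (5456 genes) or in 3 or more of the NextSeq libraries (5445 genes). Counts were scaled with TMM factors and fitted with edgeR 4.0.16 (limma 3.58.1, R 4.3.3) by glmQLFit and glmQLFTest. One model held the 12 HiSeq libraries and had a lane term, another held the 6 NextSeq libraries, and a gene was called at a Benjamini-Hochberg adjusted p under 0.05. Intervals are 95%. CPM are per 1000000 counts after TMM scaling, and log2 CPM for correlations used a prior count of 2. The fit was also run on simulated data that held no lane effect, and no result given here rests on that run. No replicate pair agreed within sampling noise (smallest chi-square per degree of freedom 6.43). The members and the gene lists were chosen with earlier results of these data known. Named genes were the members, the lists (of the Pol III and Pol II lists the largest changes) and the 10 genes most like the mean member profile. Promoter windows count from the coding start (Python 3.11.15, pandas 2.3.3, numpy 2.4.6; figures with matplotlib 3.10.9).

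Each library's deviation from its group mean was correlated across genes with that of its same-numbered partner. The values were 0.88, 0.77 and 0.94 for LF and its control, whose replicates the study assigns to different days, so these numbers pair the libraries. In AMB-LF they were -0.33, -0.11 and 0.04 and in AMB -0.27, -0.50 and -0.28, so there only the number is shared. The alternatives were the likelihood ratio test, DESeq2 1.42.0, RLE factors, library size only, other filters, no lane term, each lane alone, a replicate block, fits to the libraries compared only, exchanged or pooled controls and each library left out.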

Additional observations from a re-analysis of the deposited data

Results flagged for a closer look

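The response to AMB-LF differed from the response to AMB, by the test of the difference itself, in 7 of the 8 genes. Over all genes tested 10.1% were called higher and 7.46% lower. The count of members was 0 without control for AMB replicate 1 and without AMB-LF replicate 1, where 0 of all genes were called as well. With the replicate block it was also 0, and over all genes 1 was called higher and 5 lower. On the log2 scale the AMB-LF response was higher by 1.39 in RPA190, 1.35 in RPA135, 1.22 in RPA49, 1.35 in RPA43, 1.21 in RPA34, 0.96 in RPA12 and 0.60 in RRN3. AMB and AMB-LF libraries stood at like levels in these genes and their controls did not, and with the control labels exchanged the differences were -1.02, -1.30, -1.28, -1.14, -1.14, -0.89 and -0.50. Which labels of the controls hold was not tested.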

How the results depend on the processing

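Over the other test tools, scalings and filters on low counts, the count of members called stayed within 1.5 times in all 6 comparisons. Leaving out each library gave 0 to 6 of 8 in AMB, 0 to 6 in AMB-LF, 0 to 7 for the difference between the responses, 6 to 8 for the controls and 0 for AMB-LF against AMB and for LF. Without the lane term 7 members were called in AMB-LF. Over all genes tested 1015 were then called higher and 1081 lower, against 770 and 825 with the term. Within lane 1 alone the log2 fold changes of the members were -1.09 to -0.06 in AMB, 0.40 to 0.69 in AMB-LF and 0.65 to 1.60 for the difference. Within lane 2 alone they were -0.90 to 0.11 in AMB. Calls within a lane are not given. In each lane a compared group held a single library, which was assumed to vary like the others.

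With the replicate block, 4 members were called in AMB, 2 in AMB-LF, 0 for the difference (0.39 to 1.12) and 6 for the controls, where the numbers do not pair the libraries. Over all genes tested this fit called 846 higher and 788 lower in AMB, 541 and 476 in AMB-LF, and 1 and 5 for the difference. For LF, where the numbers do pair the libraries, the block changed no call: 0 of the members and 0 of all genes were called.

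With the control labels exchanged, the count in the main direction was 0 in AMB, AMB-LF and the difference. For RPA190, RPA135, RPA49, RPA43, RPA34, RPA14, RPA12 and RRN3 the AMB values were then 0.37, 0.56, 0.52, 0.44, 0.36, 0.56, 0.50 and 0.53, the AMB-LF values -0.65, -0.73, -0.77, -0.71, -0.78, -0.19, -0.39 and 0.03, and the differences -1.02, -1.30, -1.28, -1.14, -1.14, -0.75, -0.89 and -0.50. With the untreated libraries pooled the counts were 0 in all 3, RPA12 was at -0.069 in AMB-LF, and the differences of RPA135, RPA49, RPA43, RPA34, RPA12 and RRN3 were -0.11, -0.16, -0.0070, -0.073, -0.049 and -0.0034. Over all genes tested the pooled fit called 701 higher and 619 lower in AMB, 550 and 411 in AMB-LF, and 0 in either direction for the difference. Removing group means lowered the median correlation of the members from 0.89 to 0.75, and the motif count of 7 was the same with 250 bases before the start only. Leaving out the fits to a lane alone, the count of all genes called lower in AMB ran from 421 to 1149 and higher from 554 to 1123. In AMB-LF these counts ran from 172 to 1296 and from 301 to 1015. For the difference they ran from 0 to 716 and from 0 to 794, and for AMB-LF against AMB from 0 to 57 and from 0 to 6. The cause of these changes was not tested.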
